A study of Mus musculus with 4 samples.

Results

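RNA-seq of 3 Morc3 rescue clones was used to compare clone T131-3D, with 1 library, with clones T131-3C and T131-3M, with 1 library each. These 3 libraries are taken from the 4 of the series, and the other is a wild-type library. All 4 are mouse embryonic stem (ES) cells, grown without feeder cells on gelatin in medium with serum and LIF. The clones share the genotype Morc3 rescue: the Morc3 ko line KO27-2 was transfected with a PiggyBac transposon that carries wild-type Morc3, and individual puromycin-resistant clones were isolated and kept under selection. The wild-type line is wt26 at passage 46, and no passage is given for the clones. Each clone is a single clone of a single ko line, so that clone and culture cannot be told apart, and strain and age were not given in the labels. Clone 3D was singled out by its measured values on chromosome 13. All differences between 3D and the other clones are therefore given as a description, without a test, and wild type stands beside them outside the contrast.

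Morc3 is a GHKL ATPase of the Microrchidia family that is found in PML nuclear bodies and acts in the silencing of endogenous retroviruses. ES cells in long culture are known to gain and lose whole chromosomes, and the RNA of the genes on a chromosome tends to follow its copy number. Clones picked from a single line also differ in the activity of individual genes, including imprinted genes and genes under DNA methylation. The DNA of these clones was not analysed here, so that the copy number of no chromosome is known from these data.

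The libraries of 3C, 3D and 3M had 13620914, 14662197 and 15479190 read pairs on genes, and wild type had 18789457. Counts are given as CPM, the read pairs on a gene per 1000000 read pairs on all genes of that library. Of all read pairs, 21.8%, 23.0% and 21.0% were unmapped in 3C, 3D and 3M. The clones differed from each other by more than sampling noise, with a chi-square statistic per gene of 7.42 for 3C and 3M, 11.2 for 3D and 3C and 9.72 for 3D and 3M. The labelled cell type was supported by the core pluripotency factors Pou5f1 (691, 750 and 721 CPM in 3C, 3D and 3M) and Sox2 (430, 504 and 504 CPM). Zfp42 had 602, 672 and 603 CPM, and Esrrb had 642, 692 and 635 CPM. Nanog had 463, 355 and 481 CPM and was lowest in 3D. Of 11 fibroblast markers, Col3a1, Dcn and Lum were at 0 in all 4 libraries, while 4 passed a mean of 1 CPM over the clones, led by Thy1 with 43.2, 18.5 and 22.7 CPM. The summed level of the list was 55.7, 29.7 and 33.1 CPM in 3C, 3D and 3M and 42.6 CPM in wild type.

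Morc3 itself, the targeted and re-expressed gene, lies on chromosome 16 from 93832121 to 93876077 of mm10. It had 648 CPM in 3C, 493 CPM in 3D, 610 CPM in 3M and 163 CPM in wild type. All 3 clones were above wild type, and 3D was the lowest of them. The count of 7225 read pairs in 3D was 0.785 times that of 3C and 3M together after scaling to library size (95% exact binomial interval 0.764 to 0.807). This interval, as all intervals on counts here, covers counting error only and not the difference between cultures. Read pairs from the transgene and from the endogenous locus are counted together. The 15 measured genes of a list of Morc3 itself, its partners and other silencing factors, all outside chromosome 13, lay between -0.38 and 0.16 of the mean of 3C and 3M on the log2 scale. Clone 3D was lowest in 11 and highest in 4 of them, against 35.4% and 36.3% of all genes outside chromosome 13. By the rule of size given further on, which 1.16% of those genes met as higher and 1.47% as lower, 0 of the 15 stood apart. Trim28, the corepressor of KRAB zinc finger proteins, had 1751, 1557 and 1718 CPM in 3C, 3D and 3M.

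The genes of chromosome 13 as a group were lower in 3D than in both other clones. The files hold 903 genes of this chromosome, of which 471 had a mean of 1 CPM or more over the clones. The median difference between 3D and the mean of 3C and 3M was -0.46 in log2(CPM + 0.5), with quartiles of -0.59 and -0.27, which corresponds to a median of 0.728 times the level in the other clones. Against 3C alone the median was -0.44, against 3M alone it was -0.48, and between 3C and 3M it was -0.04. In 409 of the 471 genes, or 86.8%, 3D was the lowest of the 3 clones, in 41 it lay between the others and in 21 it was the highest. For 350 genes, or 74.3%, 3D was lowest by more than the whole gap between 3C and 3M, against 19.3% of the genes of other chromosomes. These counts restate the values by which 3D was chosen. Summed over all its genes, chromosome 13 took 39514, 30727 and 40825 CPM in 3C, 3D and 3M and 31007 CPM in wild type. In bulk RNA, fewer cells with a high level and less RNA in every cell cannot be told apart.

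On the other chromosomes no such shift was measured. Over the 11639 genes with a mean of 1 CPM or more that were placed elsewhere, the median difference was 0.0033 on the log2 scale. Of the 19 other chromosomes with at least 100 such genes, the lowest median was that of chromosome 10, at -0.0095, and the highest was that of chromosome 6, at 0.03. Chromosome Y, with 3 such genes, had a median of 0.20. The share of genes in which 3D was the lowest clone lay between 29.0% and 40.1% on these chromosomes and was 35.4% over all of them. The genes of chromosome 14 lay above wild type in every clone, by a median of 0.31 in 3C, 0.31 in 3D and 0.32 in 3M, but their median difference between 3D and the other clones was -0.00028. Relative to wild type, the genes of chromosome 13 had medians of 0.44 in 3C, 0.47 in 3M and -0.0026 in 3D. Wild type was nearer to 3D than to the mean of 3C and 3M in 372 of the 471 genes, or 79.0%, and in 50.1% of the genes elsewhere.

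**Figure D1:**
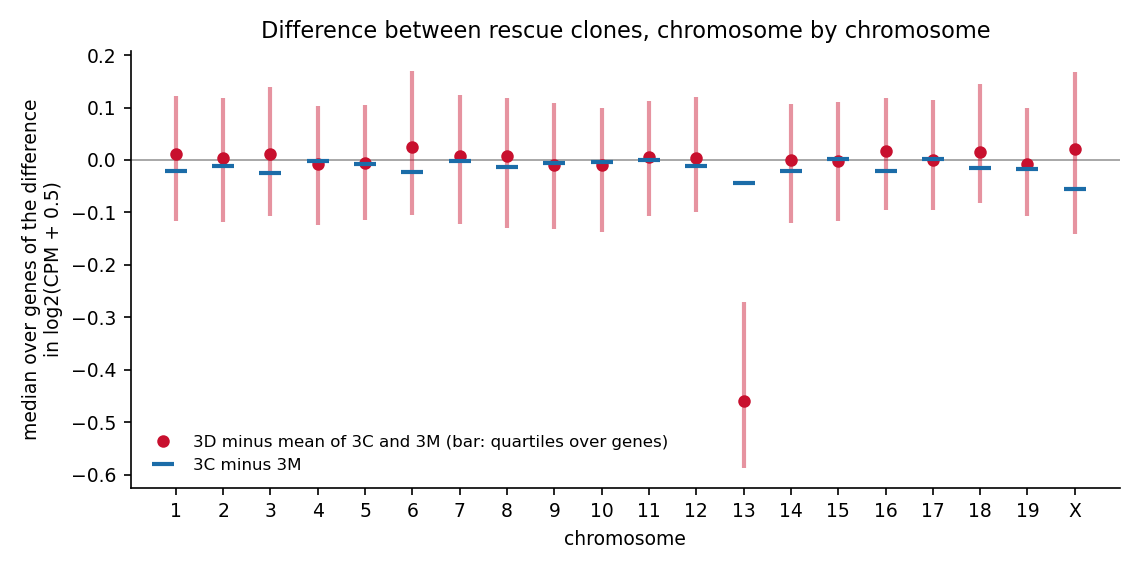
Median over genes of the difference in log2(CPM + 0.5) for each chromosome with at least 100 genes (x axis), which leaves out chromosome Y. Red points are 3D minus the mean of 3C and 3M, red bars span the quartiles over genes, and blue dashes are 3C minus 3M. Of these, only chromosome 13, with a median of -0.46, lies away from 0, while the medians of the 19 others lie between -0.0095 and 0.03.

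The lower level ran along the whole chromosome, and the histone genes of a single window did not follow it. In windows of 10 Mb, the median difference lay between -0.41 and -0.59, except for the window from 20 to 30 Mb, where it was -0.07 and 3D was lowest in 37 of 72 genes. The 26 genes of that window outside the Hist1 histone list had a median of -0.40. In windows of 5 Mb with at least 8 genes, the medians of 20 windows on chromosome 13 lay between -0.78 and -0.06, and those of 391 windows on other chromosomes between -0.23 and 0.19. The shift was of similar size at low and high levels of expression. The median was -0.41 for the 117 genes of chromosome 13 with a mean of 1 to 10 CPM, -0.45 for the 165 genes with 10 to 50 CPM and -0.49 for the 189 genes over 50 CPM. The 13 long noncoding RNAs had a median of -0.54 and 3D was lowest in 12 of them, close to the -0.46 of the 455 protein-coding genes.

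**Figure D2:**
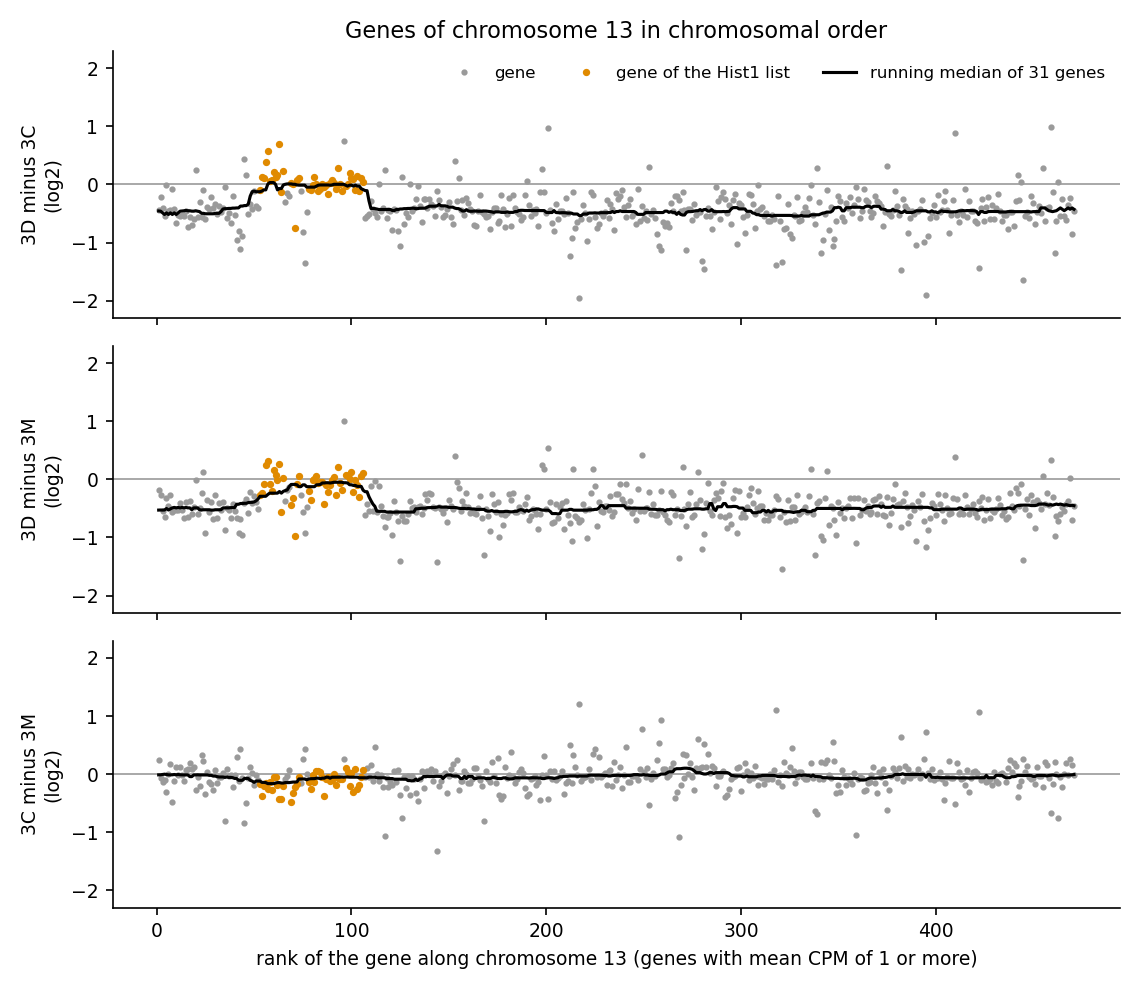
Differences in log2(CPM + 0.5) between pairs of clones for the 471 genes of chromosome 13, ordered along the chromosome (x axis, rank of the gene). Grey points are genes, orange points are members of the Hist1 list and black lines are running medians over 31 genes. Both panels with 3D lie near -0.5 except over the histone genes, and the panel of 3C minus 3M lies near 0.

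The window with a median near 0 holds the Hist1 cluster, the largest array of replication-dependent histone genes in the mouse. These genes encode core and linker histones, are transcribed in S phase and give RNAs that end in a stem-loop in place of a poly(A) tail. The libraries were made by depletion of ribosomal RNA, which keeps such RNAs. Of the 53 histone genes in the list, 46 passed the filter on chromosome 13, between 21715711 and 23764412. Their median difference between 3D and the mean of 3C and 3M was -0.01, with quartiles of -0.13 and 0.08. Clone 3D was lowest in 15 of them, highest in 14 and between the others in 17. Their summed level was 8321 CPM in 3C, 8606 CPM in 3D and 8750 CPM in 3M.

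The 5 linker histone genes of the list had high counts. Hist1h1a had 810, 838 and 775 CPM in 3C, 3D and 3M, Hist1h1b had 493, 540 and 512 CPM, Hist1h1c had 459, 462 and 445 CPM, and Hist1h1d had 651, 618 and 636 CPM. For these 4 genes the difference from the mean of the other clones lay between -0.06 and 0.11 on the log2 scale, and 3D was lowest for Hist1h1d and highest for the others. Hist1h1e was higher in 3D, with 360, 436 and 378 CPM, a difference of 0.24 and a ratio of 1.18 (95% interval 1.14 to 1.22). One core histone gene of the list, Hist1h4i, stood apart, with 61.6, 36.3 and 71.6 CPM, and it is named here after its values were seen. Histone genes have near-identical copies, so that the split of read pairs between single members is uncertain. The 26 other genes between 20 and 30 Mb, which lie among and around the histone genes, had a median of -0.40, and 3D was lowest in 22 of them. They include Hist1h1t, a histone gene that is not in the list and the only one of the 26 in which 3D was highest. The 399 genes of the rest of the chromosome had a median of -0.49, and 3D was lowest in 372. Without the histone list, the chromosome had a median of -0.48, with 3D lowest in 92.7% of 425 genes. Cell cycle genes on other chromosomes lay as near to 0 as the histones, with a median of -0.01 over 38 genes. Among them, the topoisomerase gene Top2a had 1116, 1103 and 1104 CPM and the replication licensing gene Mcm3 had 741, 743 and 746 CPM in 3C, 3D and 3M.

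**Figure D3:**
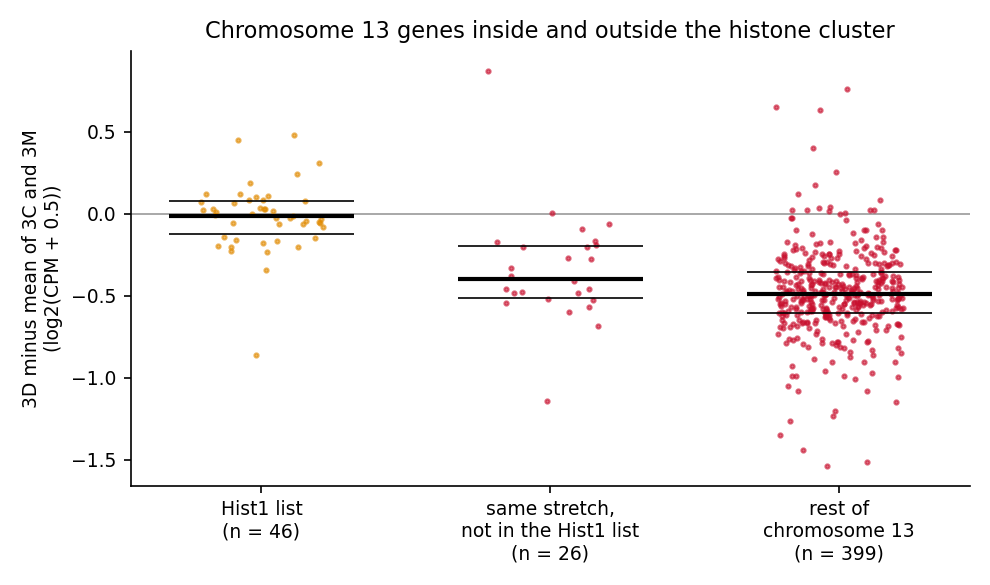
Difference between 3D and the mean of 3C and 3M in log2(CPM + 0.5) for each gene of chromosome 13, in 3 groups (x axis). The same stretch is that from 20 to 30 Mb. Thick lines are medians (-0.01, -0.40 and -0.49 from left to right) and thin lines are quartiles, and only the histone genes are centred on 0.

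To name the genes with the clearest separation, a gene was said to stand apart in 3D when 3D lay on one side of both other clones, the nearer of them differed by at least 1.5-fold in CPM + 0.5, and this gap was larger than the gap between 3C and 3M. On chromosome 13, 79 of 471 genes, or 16.8%, stood apart as lower and 1 gene, or 0.212%, stood apart as higher. On the other chromosomes, 171 genes, or 1.47%, stood apart as lower and 135 genes, or 1.16%, as higher. Chromosome 13 thus held 31.5% of all genes that stood apart as lower, of which 250 were placed on a chromosome, and 3.89% of all genes placed. At the edge of the filter, Unc5a and Gas1 were just inside with means of 1.01 CPM, and Gm9776 and Rgs14 just outside with 0.972 and 0.986 CPM.

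The genes of chromosome 13 with the largest gaps went beyond the shift of the chromosome. Plk2, a polo-like kinase of the stress response and centriole duplication at 110395044 to 110400844, had 15.9 CPM in 3C, 4.77 CPM in 3D and 13.2 CPM in 3M. Its count in 3D was 0.329 times that of the other clones (95% interval 0.252 to 0.425). Fam169a, at 97067287 to 97130293, had 408, 197 and 409 CPM, so that 3C and 3M lay together and 3D was at 0.481 times their level (0.462 to 0.501). Gm2373, at 97434970 to 97497664, had 327, 87.2 and 197 CPM. For all 3 genes 3D was also below wild type, which had 7.03, 272 and 130 CPM. The others were D630045M09Rik (26.6, 10.2 and 30.7 CPM), the protease inhibitor gene Serpinb9b (10.6, 4.84 and 13.7 CPM) and the glutaredoxin gene Glrx (10.9, 4.50 and 9.30 CPM). Mxd3, a Max-binding repressor, had 7.42, 3.55 and 7.62 CPM, and Rhobtb3 had 10.6, 5.18 and 11.2 CPM. The rule by which these genes were chosen sets 3D below both other clones. The gene that stood apart as higher was Hist1h1t, the testis linker histone. It lies within the span of the Hist1 list but is not a member of it. It had 10.6, 18.0 and 8.72 CPM in the clones and 22.9 CPM in wild type.

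Chromosome 13 carries genes of many functions, and lists of them were described by role. Over all genes of the chromosome, 3D was lowest in 86.8% and 16.8% stood apart as lower, with a median of -0.46. Without the Hist1 list, whose genes are in none of these role lists, 3D was lowest in 92.7% of 425 genes, with a median of -0.48. The counts of each list below are to be read against these shares. All 14 measured cell cycle genes were lowest in 3D, with a median of -0.48 and 2 that stood apart, Plk2 and the kinesin gene Kif13a (71.1, 41.7 and 77.8 CPM in 3C, 3D and 3M). Ccnb1, the cyclin that activates Cdk1 at mitosis, had 284, 206 and 277 CPM and 204 CPM in wild type. Kif2a, a microtubule-depolymerising kinesin, had 193, 133 and 213 CPM, and the transcription factor gene E2f3 had 98.8, 74.1 and 115 CPM. All 11 DNA repair and telomere genes were lowest in 3D as well, with a median of -0.49. The 3 that stood apart were the checkpoint loader gene Rad17 (64.0, 40.9 and 62.1 CPM), the translesion polymerase gene Polk (32.2, 17.7 and 30.2 CPM) and Uimc1 of the BRCA1-A complex (40.7, 24.1 and 37.4 CPM). The mismatch repair gene Msh3 had 83.7, 60.6 and 92.3 CPM. Smn1, of the SMN complex, had 82.4, 57.4 and 85.9 CPM, and Tdp2, which removes topoisomerase adducts, had 61.9, 46.04 and 67.6 CPM.

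Of the chromatin and RNA modification genes, 12 of 12 were lowest in 3D and 4 stood apart, with a median of -0.56, against 86.8%, 16.8% and -0.46 for the whole chromosome. Without the Hist1 list, the share of genes lowest in 3D was 92.7% and the median was -0.48. Jarid2, a subunit of Polycomb repressive complex 2 at 44730774 to 44921643, had 1071, 652 and 991 CPM in 3C, 3D and 3M, and 799 CPM in wild type. With 9555 read pairs in 3D, its ratio to the other clones was 0.634 (0.619 to 0.648). Nsd1, which methylates histone H3 at lysine 36, lies at 55209782 to 55318325 and had 920, 611 and 994 CPM. The others that stood apart were Phf2, a histone demethylase gene (23.1, 13.6 and 21.1 CPM), and Habp4 (7.56, 3.21 and 5.94 CPM). The RNA-binding protein gene Hnrnpk had a difference of only -0.12, with 663, 629 and 710 CPM. All these genes were lower in 3D than in both other clones, and the shift of Hnrnpk was smaller than that of the chromosome.

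The 14 mitochondrial genes had a median of -0.50, and 3D was lowest in all of them. Sdha, the flavoprotein of succinate dehydrogenase, had 329, 234 and 340 CPM, the Rieske protein gene Uqcrfs1 had 93.2, 62.0 and 97.3 CPM, and the mitoribosomal protein gene Mrps30 had 89.2, 61.2 and 92.8 CPM. Another mitoribosomal gene, Mrpl36, stood apart with 42.4, 27.1 and 43.1 CPM. The 13 genes of protein synthesis and trafficking had a median of -0.45, again with 3D lowest in all. The import receptor gene Ipo11 stood apart (235, 151 and 230 CPM), while the import receptor gene Tnpo1 differed by -0.22 (366, 322 and 383 CPM). Btf3, of the nascent polypeptide-associated complex, had 329, 257 and 352 CPM, and the ribosomal protein gene Rps23 had 244, 178 and 256 CPM. For each of the genes named from both lists, 3D lay below the range of 3C and 3M.

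In the metabolism list, 11 of 12 genes were lowest in 3D, with a median of -0.37. The list also holds Prpf4b, a splicing kinase gene and not a metabolic one, with 218, 169 and 231 CPM in 3C, 3D and 3M. The glycosyltransferase gene Gcnt2 had 170, 137 and 175 CPM. The steroid reductase gene Srd5a1 stood apart, with 12.1, 7.64 and 12.02 CPM. The signalling list had a median of -0.46, and 3D was lowest in 13 of 15 genes. Map3k1, a kinase of the JNK pathway, had 154, 104 and 159 CPM, and Il6st, the shared receptor subunit through which LIF acts, had 127, 111 and 134 CPM. Ptch1, the Hedgehog receptor, had 144, 119 and 308 CPM, and here 3C lay nearer to 3D than to 3M. Pik3r1 (9.18, 5.59 and 9.04 CPM) and the integrin gene Itga1 (6.39, 2.52 and 5.43 CPM) stood apart. The transcription factor list, with 6 measured genes, had the smallest median of these lists, at -0.27. In it Id4 stood apart (8.22, 5.12 and 10.7 CPM), Zfp808 had 45.9, 29.1 and 43.3 CPM, Hivep1 had 31.1, 25.7 and 33.7 CPM, and Sox4, with 18.1, 18.1 and 19.7 CPM, did not differ beyond counting error (ratio 0.955, interval 0.821 to 1.11).

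Subunits of the same complex that are encoded on different chromosomes had different ratios between the clones. In 8 complexes or protein pairs, the 11 subunits encoded on chromosome 13 were all lowest in 3D, with a median of -0.48 and a range of -0.61 to -0.27. This restates the level of the chromosome: without the Hist1 list, 3D was lowest in 92.7% of its 425 genes, with a median of -0.48. The 19 subunits encoded elsewhere had a median of -0.02 and a range of -0.36 to 0.26, with 3D lowest in 9 and highest in 8. Over all genes outside chromosome 13, 3D was lowest in 35.4% and highest in 36.3%. In succinate dehydrogenase, Sdha differed by -0.51, whereas Sdhb had 68.8, 76.1 and 65.7 CPM, Sdhc had 93.5, 92.7 and 94.4 CPM and Sdhd had 70.3, 72.0 and 70.4 CPM. In the cytochrome bc1 complex, Uqcrfs1 and Uqcrb were at -0.61 and -0.48, and the 7 other subunits of the list lay between -0.16 and 0.26. Of the Cdk-activating kinase, which phosphorylates cell cycle kinases and RNA polymerase II, Cdk7 had 103, 69.8 and 97.5 CPM and its cyclin Ccnh 48.1, 41.2 and 51.6 CPM, while the assembly factor gene Mnat1 on chromosome 12 had 29.7, 34.2 and 33.3 CPM.

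The same was seen for regulators of division and repair. Geminin (Gmnn), the inhibitor of Cdt1, had 91.8, 63.1 and 85.0 CPM, and Cdt1 itself, on chromosome 8, had 226, 214 and 239 CPM. The centromere genes Cenph and Cenpk of chromosome 13 differed by -0.48 and -0.46, and their partners Cenpi and Cenpm by 0.06 and -0.05. Msh3 differed by -0.53, and Msh6, another gene of mismatch repair, by -0.10. Ccnb1 differed by -0.45, and Ccnb2 and Cdk1 by 0.20 and 0.07. An exception was the end joining ligase group, in which Xrcc4 of chromosome 13 differed by -0.29, Lig4 by -0.12 and Nhej1, encoded on chromosome 1, by -0.36. The counts of Nhej1 were low, and its counting interval of 0.561 to 1.02 included 1.

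**Figure D4:**
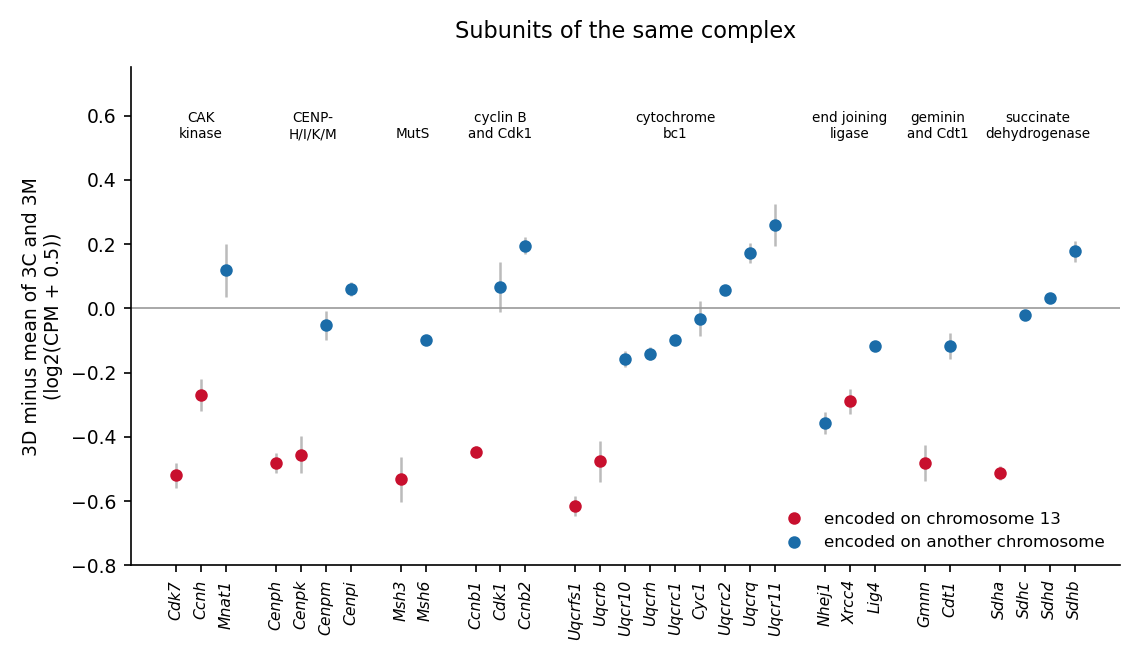
Difference between 3D and the mean of 3C and 3M in log2(CPM + 0.5) for subunits of 8 complexes or protein pairs (x axis, grouped). Red points are subunits encoded on chromosome 13, blue points those encoded elsewhere, and grey bars run from 3D minus 3C to 3D minus 3M. The red points lie between -0.61 and -0.27, and the blue points, apart from Nhej1 at -0.36, between -0.16 and 0.26.

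Outside chromosome 13, clone 3D differed from the others in single genes of many chromosomes and in a run of genes on chromosome 4. Of the 135 genes that stood apart as higher, 45 had a mean of at least 5 CPM, and of the 171 that stood apart as lower, 73 did. A gap of at least 2-fold to the nearer clone was seen for 21 and 34 genes. The most separated gene on the higher side was Kbtbd11, a Kelch and BTB domain gene on chromosome 8 at 15011025 to 15033333, with 11.2 CPM in 3C, 58.4 CPM in 3D, 15.0 CPM in 3M and 14.2 CPM in wild type. The 856 read pairs in 3D were 4.42 times the level of the other clones (3.92 to 5.003), and wild type lay with 3C and 3M. Otx2, a homeobox gene of primed pluripotency and the anterior brain on chromosome 14 at 48656781 to 48667644, had 1.69, 14.6 and 4.13 CPM in 3C, 3D and 3M and 6.599 CPM in wild type, with a ratio of 4.88 (3.79 to 6.34). Dnajc6, which encodes the clathrin-uncoating protein auxilin, lies on chromosome 4 at 101496648 to 101642799 and had 18.8, 45.8 and 18.1 CPM in the clones and 55.5 CPM in wild type, so that 3D and wild type lay together and 3C and 3M together.

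The other named genes on the higher side had low counts in 3C and 3M. Otx2, Calb2, Nfasc, Krt13 and Aldh1l2 reached the mean of 5 CPM used for naming only with 3D counted in it. Calb2, which encodes calretinin, had 2.42, 13.8 and 5.10 CPM in 3C, 3D and 3M, the adhesion gene Nfasc had 3.16, 9.14 and 3.62 CPM, and the NMDA receptor gene Grin1 had 6.61, 17.3 and 8.14 CPM. The retinoic acid-binding protein gene Crabp1 had 4.11, 12.8 and 6.33 CPM, and the keratin gene Krt13 had 2.50, 8.87 and 4.26 CPM. Arrb1, which encodes an arrestin, had 11.4, 23.4 and 10.8 CPM and 29.4 CPM in wild type. Fetub had 4.70, 16.5 and 7.82 CPM, Fam213a had 5.14, 13.4 and 6.52 CPM, and the mitochondrial folate enzyme gene Aldh1l2 had 3.82, 11.05 and 5.43 CPM. Of the 135 genes that stood apart as higher, wild type was nearer to 3D in 64.4%, against 50.1% of all genes outside chromosome 13.

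On the lower side, the most separated gene was Rhox5, a homeobox gene of the X-linked reproductive cluster at 37754608 to 37808878. It had 116 CPM in 3C, 15.4 CPM in 3D, 64.0 CPM in 3M and 43.5 CPM in wild type, and its ratio was 0.174 (0.151 to 0.1997). The other clones also differed from each other, by 0.86 on the log2 scale, and 3D was still more than this below 3M. Sfmbt2, a Polycomb group gene that is imprinted in the mouse, lies on chromosome 2 at 10370440 to 10595253. It had 396, 87.0 and 286 CPM in the clones and 307 CPM in wild type, with a ratio of 0.258 (0.243 to 0.273), so that 3D was below all other libraries. Khdc3 (Filia), a maternal-effect gene of oocytes and ES cells on chromosome 9 at 73101381 to 73106631, had 143, 56.5 and 137 CPM and 82.2 CPM in wild type.

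Pkhd1, the gene of fibrocystin, had 9.18, 2.11 and 10.9 CPM in 3C, 3D and 3M and 2.45 CPM in wild type, and Kctd12 had 7.78, 2.86 and 8.33 CPM and 3.25 CPM in wild type. For both, 3D lay with wild type. Rpl10l, an expressed copy of a ribosomal protein gene, had 9.91, 2.66 and 28.7 CPM, and Rpl39l had 10.2, 3.89 and 13.8 CPM, and read pairs of such copies may be split with their parent genes. Arl14epl had 10.6, 1.501 and 6.20 CPM, Vstm5 had 6.31, 2.11 and 6.59 CPM, and Mroh6 had 11.5, 3.07 and 8.33 CPM. Among the 171 genes that stood apart as lower, wild type was nearer to 3D in 48.5%, close to the 50.1% of all genes outside chromosome 13.

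A run of genes on chromosome 4, with zinc finger genes among them, was also lower in 3D, and it was noticed after the values were seen. Zfp600, at 146156827 to 146198756, had 13.2, 1.98 and 8.85 CPM in 3C, 3D and 3M, and Gm13247, at 146502000 to 146539395, had 25.1, 6.89 and 17.5 CPM. Between 145212368 and 147987205, 3D was lowest in 19 of 24 genes, with a median of -0.39, against 40.1% of all genes of chromosome 4 and 35.4% of those outside chromosome 13. The limits of the run were set from these values. In all, 6 of the 18 genes of chromosome 4 that stood apart as lower lay there. Wild type was nearer to 3D in 5 of these 6. The run is set by position and not by gene family. Its zinc finger genes have near-identical copies, so that the counts of single members of that family are uncertain.

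**Figure D5:**
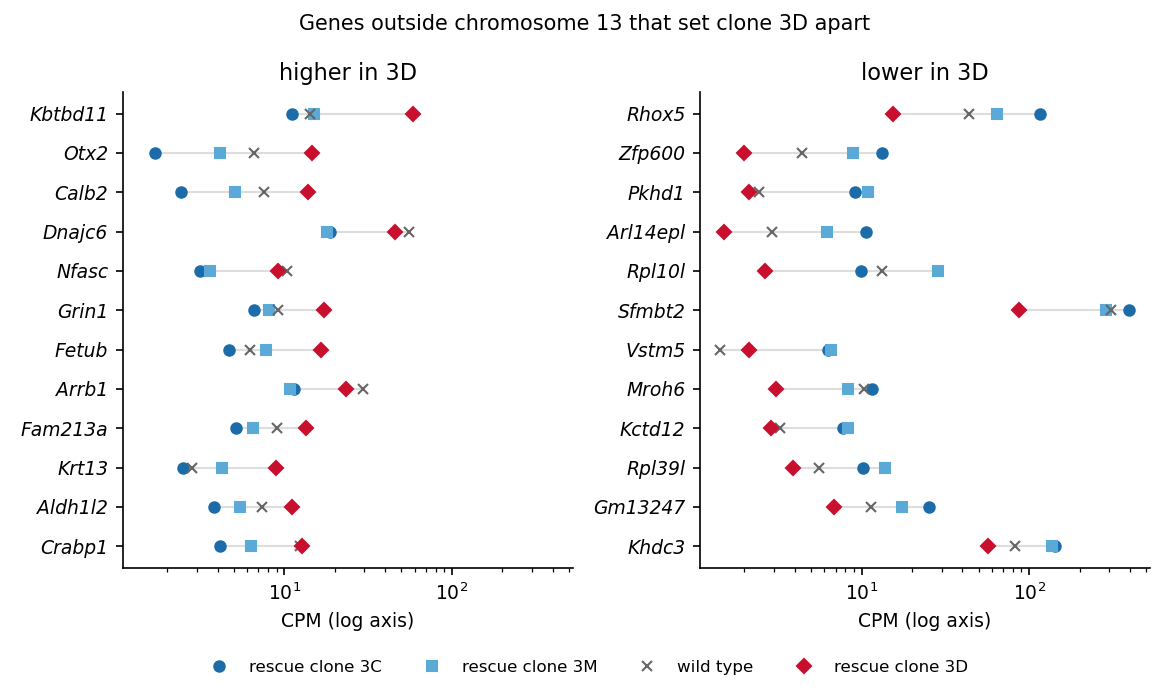
CPM on a log axis for the 12 genes outside chromosome 13 with the largest gap on the higher side (left) and the 12 on the lower side (right), among genes with a mean of at least 5 CPM that stood apart. Symbols give the clones 3C (circle), 3M (square) and 3D (red diamond) and wild type (cross). Clone 3D lies outside the range of 3C and 3M for all 24 genes, as the choice of genes requires, whereas wild type lies near 3D for Dnajc6, Nfasc, Crabp1, Pkhd1 and Kctd12 and near 3C or 3M for Kbtbd11, Sfmbt2 and Mroh6.

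Marker lists outside chromosome 13 were then set beside the background of 1.16% higher and 1.47% lower genes, and of 36.3% and 35.4% of genes in which 3D was the highest or the lowest clone. None of 24 genes of naive pluripotency stood apart, and their median was 0.06. In 13 of them 3D was the highest clone and in 6 the lowest, with differences from -0.47 to 0.57. Nanog, at -0.41, was among the 6. Tfcp2l1, a transcription factor of naive ES cells, had 1305, 1643 and 1403 CPM in 3C, 3D and 3M, and the dioxygenase gene Tet1 had 1300.1, 1434 and 1287 CPM. Of 9 measured genes of primed pluripotency and early differentiation, Otx2 and Sox3 stood apart as higher, and Sox3 had 0.587, 2.93 and 1.16 CPM. Sox3 passed the filter of 1 CPM only with 3D counted in the mean. Clone 3D was highest in 5 of the 9 and lowest in 2, with differences from -0.43 to 2.24. The summed level of the list was lowest in 3D, with 299.6 CPM in 3C, 259.2 CPM in 3D and 285.0 CPM in 3M. Of 2 measured mesoderm genes Eomes stood apart as higher (1.98, 7.78 and 3.94 CPM), and the other, Mixl1, was lowest in 3D by -0.11. Of 4 measured neuroectoderm genes Sox1 stood apart as higher (2.72, 4.91 and 2.78 CPM), whereas 3D was lowest for the other 3, Nes (59.7, 35.3 and 48.3 CPM), Map2 (a difference of -0.51) and Tubb3 (48.7, 40.5 and 40.6 CPM). Of 6 measured trophoblast genes, Eomes, which is also on this list, and Plac8 (2.20, 5.93 and 2.84 CPM, with 12.1 CPM in wild type) stood apart as higher. Of the other 4, Krt7 was highest in 3D (0.367, 2.11 and 1.42 CPM), Krt8 was lowest (a difference of -0.47), and for Tfap2c and Ascl2 3D lay between 3C and 3M. Krt7, as Sox3, passed the filter only with 3D counted in the mean. The members of these lists that did not stand apart are named after their values were seen.

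Of 10 measured primitive endoderm markers, 3D was lowest in 7, and 2 stood apart. The basement membrane collagen gene Col4a1 had 74.5, 25.2 and 44.0 CPM in 3C, 3D and 3M and 66.7 CPM in wild type, and the transcription factor gene Gata4 had 4.11, 1.43 and 2.78 CPM. The defining endoderm genes Gata6, Sox17 and Foxa2 were below 0.5 CPM in all 4 libraries, and the summed level of the 18 genes of the list was 1688 CPM in 3C, 1608 CPM in 3D and 1647 CPM in 3M. Whether a few differentiating cells in the cultures had a part in these values was not tested. Of the fibroblast list, 0 of 4 measured genes stood apart. For Thy1, 3C lay away from both others, and Pdgfrb had 5.29, 5.18 and 4.20 CPM and Fbn1 5.07, 3.68 and 4.52 CPM.

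Among genes of DNA methylation, Dnmt3l, the cofactor of the de novo methyltransferases on chromosome 10 at 78042287 to 78063622, stood apart with 232, 94.8 and 161 CPM in 3C, 3D and 3M, and wild type had 336 CPM. The ratio of 3D to the other clones was 0.488 (0.460 to 0.518), and the other 7 measured genes of the list did not stand apart. Of 21 measured genes of the imprinted list, which does not hold Sfmbt2, Slc22a18 stood apart with 3.60, 6.89 and 3.88 CPM. Of 10 germline genes Rhox5 did, and of 2 measured genes of the 2-cell-like state Zfp750 did, with 2.86, 1.57 and 3.23 CPM. None of 9 interferon and innate immune genes stood apart. For Ifitm3, with 73.3, 110 and 114 CPM, and Ddx58, with 73.8, 56.1 and 58.3 CPM, 3D lay close to 3M. The Y-linked genes Eif2s3y (35.4, 44.2 and 32.9 CPM) and Uty (33.8, 35.8 and 28.8 CPM) were highest in 3D and did not stand apart.

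The p53 and stress response lists had members that lay mostly on the same side of 3C and 3M, by small amounts. In 14 of 15 p53 target and apoptosis genes 3D was the lowest clone, against 35.4% of all genes outside chromosome 13, and 0 stood apart. The exception was Pmaip1, with 33.6, 24.5 and 22.6 CPM in 3C, 3D and 3M, which is named after its values were seen. The median was -0.30, with a range of -0.62 to -0.04. Ccng1, which encodes cyclin G1, had 81.9, 60.6 and 88.4 CPM, and Zmat3 had 99.6, 89.7 and 101 CPM. In 11 of 17 genes of the integrated stress and unfolded protein response 3D was the highest, against 36.3% of all genes outside chromosome 13, with a median of 0.24. In 3 it was the lowest, Xbp1 (43.0, 30.2 and 43.5 CPM), the chaperone gene Hspa5 (516, 502 and 538 CPM) and Sesn2 (72.6, 67.2 and 69.1 CPM), named after their values were seen. Asns, the asparagine synthetase gene, stood apart with 181, 300 and 196 CPM, and wild type had 319 CPM, so that 3D and wild type lay together. These lists were chosen with earlier results of these data known, and their genes are not independent of each other.

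The spread between the other clones sets the scale for these differences. Outside chromosome 13, the standard deviation over genes of the log2 difference was 0.28 between 3C and 3M, 0.35 between 3D and 3C and 0.29 between 3D and 3M. At least a 2-fold difference was found for 120, 273 and 132 of the 11639 genes. Away from chromosome 13, the spread between 3D and 3M was thus close to that between 3C and 3M, and the pair of 3D and 3C had the widest spread of the 3 pairs. With 1 library per clone, the difference between clones cannot be told apart from that between cultures or library preparations.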

How the data were processed

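The 4 libraries were prepared from total RNA with Trizol, a column clean-up, depletion of ribosomal RNA and a directional kit, and sequenced as 50 bp read pairs. The authors aligned the read pairs to mm10 with STAR and deposited gene counts without normalization. The gene annotation was not given in the sources used here. The reverse-strand column was used, since forward-strand counts were between 1.26% and 1.31% of it. Rows that name no gene (unmapped, multimapping, no feature, ambiguous) were left out. They held between 47.3% and 54.9% of all read pairs.

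CPM was computed over the 24054 gene rows, and 12159 genes with a mean of at least 1 CPM over the 3 clones were kept. This mean includes 3D, so that a low gene can pass because it is high in 3D. Differences are in log2(CPM + 0.5), which understates those of low genes. Chromosomes came from RefSeq GRCm38.p6, the assembly of mm10, where 22542 symbols matched directly, 1351 by a synonym and 161 did not. Of the kept genes, 49 had no chromosome. Intervals on count ratios are exact (Clopper-Pearson) binomial intervals at 95%. No comparison was tested, since 3D was chosen on its values. edgeR 4.0.16 (quasi-likelihood test) and DESeq2 1.42.0 at an adjusted p of 0.01, run in R 4.3.3, gave counts of calls as alternatives. The steps were tested on simulated data. Figures and tables used Python 3.11.15, pandas 2.3.3, numpy 2.4.6, scipy 1.17.1 and matplotlib 3.10.9.

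The clones, gene lists and rules were chosen with earlier results of these data known. The genes named were Morc3, the 12 genes with the largest gaps in each direction outside chromosome 13 and the 8 on the lower side on it (mean of at least 5 CPM), all that stood apart as higher on it, the subunits of the complexes, and the 3 most abundant genes of each chromosome 13 list. In each other list they were the genes that stood apart, or the 2 most abundant where none did. Some genes that this rule names are not reported here. Members of the chromosome 13 lists that stood apart, core pluripotency factors and markers at or near 0 are named in addition, after their values were seen. The alternatives were the unstranded column, TMM or DESeq2 scaling, leaving out the gene over 1% of the counts, another filter or pseudocount, other rules of size, the 2 tests, and each of 3C and 3M left out.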

Additional observations from a re-analysis of the deposited data

How the results depend on the processing

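Of 102 recomputed values, 67 stayed within the bounds set for their kind. For medians the bound was the spread between 3C and 3M, and for counts it was 1.5 times. For the share of genes lowest in 3D it was the exact binomial interval of that share. For standard deviations it was their own spread over the pairs of clones. Of 770 values recomputed for 110 genes that the rule names, 727 stayed within the spread between 3C and 3M and 43 did not. Of the differences of at least 1.5-fold, 0 reversed. With TMM or DESeq2 scaling and without Rn45s, the medians of the p53, stress response and primitive endoderm lists kept their sign, and 3D was lowest in 13 of 15 p53 genes in place of 14. The median of the Hist1 list was 0.0017 with TMM scaling, -0.0041 with DESeq2 scaling and 0.0063 without Rn45s.

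Without a filter, the chromosome 13 median was -0.39 with 3D lowest in 74.1%, and 231 genes elsewhere stood apart as higher. With a mean of at least 5 CPM, 45 stood apart as higher and 73 as lower elsewhere, and the standard deviations were 0.22 between 3C and 3M, 0.29 between 3D and 3C and 0.23 between 3D and 3M. With a pseudocount of 0.05 CPM these were 0.32, 0.39 and 0.33, and 2 genes of chromosome 13 stood apart as higher. A gap of at least 2-fold left 6 lower and 0 higher genes on chromosome 13 and 34 and 21 elsewhere. A 1.5-fold difference from the mean of the other clones gave 119 and 4, and 349 and 309. Without the Hist1 list, an alternative chosen after seeing the data, 3D was lowest in 92.7% of chromosome 13 genes.

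edgeR's quasi-likelihood test called 94 lower and 0 higher of 507 genes on chromosome 13, and 42 lower and 34 higher of 12559 elsewhere (36, 31 and 23 of the called genes also stood apart). At an unadjusted p under 0.05 it had 308 and 1343 genes. DESeq2's Wald test called 32 and 0, and 10 and 8, with no adjusted p for 271 and 7679 genes. In both tests 3D is assumed to vary as 3C and 3M do, and their calls are no independent evidence.

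When 3C or 3M was left out, the rule had only a single gap to judge. The chromosome 13 median was then -0.48 without 3C and -0.44 without 3M, and 3D was lower in 89.2% to 93.2%. Genes standing apart as lower numbered 107 to 142 on chromosome 13 and 364 to 452 elsewhere, and as higher 1 to 5 and 261 to 517. Without 3C the counts elsewhere were 261 higher and 364 lower, and without 3M 517 and 452. Clone 3D cannot be left out. No paired analysis was possible because each library is of a different clone and the labels give no pairing between them. The limits are 1 library per clone and counting error at 13620914 to 15479190 read pairs on genes per clone.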
